A study of Mus musculus with 12 samples.

Results

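Long noncoding RNAs that stay in the nucleus, and long noncoding RNAs whose introns carry small nucleolar RNAs (snoRNAs), were followed across 12 RNA sequencing libraries of mouse fibroblasts. The 7 members were the rows of the deposited count table named Malat1, Neat1, Kcnq1ot1, Pvt1, Gas5, Snhg1 and Snhg3, of 54447 rows in all. The first 4 were taken as nuclear-retained and the last 3 as snoRNA hosts. They were chosen by gene class and on the low Malat1 count of 1 library of N-VEGF cells without dox, which was already known, so that value is given as a description. The cells expressed N-VEGF, the N-terminal product of the long VEGF isoform, or NLS-N-VEGF, the same product fused to the nuclear localization sequence (NLS) of Cas9, and the comparisons ask what N-VEGF does to transcription once it is in the nucleus. Both constructs were under a doxycycline (dox) inducible promoter delivered by lentivirus, and every group, untreated ones included, was made of puromycin-selected cells that carried a construct. The 4 groups were NLS-N-VEGF cells without dox, NLS-N-VEGF cells with dox, N-VEGF cells without dox and N-VEGF cells with dox, with 3 libraries in each. The labels describe the cells as mouse embryonic fibroblasts, and the study's methods name the NIH3T3 line. No group carried an empty vector, and the labels give no separate clones, so p-values measure the spread between these libraries, which may be technical.

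Each library label held a number and a suffix. Within each group 1 library had number 1 and suffix _120519, 1 had number 2 and suffix _120519, and 1 had number 2 and suffix _290419. What the suffix stands for is not given in the sources used here. Values of the 3 libraries of a group are given in that order below.

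Malat1 is among the most abundant nuclear RNAs of mammalian cells and gathers in nuclear speckles, the bodies that store splicing factors. Neat1 is the architectural RNA of paraspeckles: its long form builds the body around proteins such as NONO and SFPQ, and its short form ends at an upstream polyadenylation site. Kcnq1ot1 is an unspliced RNA read from the paternal allele antisense to Kcnq1, where it silences neighbouring imprinted genes in cis, and Pvt1 is the spliced noncoding neighbour of Myc. Gas5, Snhg1 and Snhg3 are spliced transcripts whose introns are the source of snoRNAs. The snoRNAs guide modification of ribosomal RNA or take part in its processing, while the spliced exons of such hosts are mostly short-lived in the cytoplasm and many are degraded by nonsense-mediated decay (NMD).

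The ends of the transcripts bear on how they are counted, because the library kit used selects RNA that carries a run of A. Mature Malat1 and the long form of Neat1 are not polyadenylated, and both end in an A-rich tract written in the genome, formed when RNase P cleaves the precursor. The stretches below are shown for this difference and were read 5′ to 3′ on the minus strand from the GENCODE vM21 transcripts of build GRCm38. In Malat1-201 and Neat1-201 the capitals mark the A-rich tract (AAAAAGCAAAA) and, before it, a U-rich motif (TTTTGCTTTT) that is the reverse complement of its last 10 bases. In Neat1-202, the short form, they mark a polyadenylation signal (AATAAA), and in Kcnq1ot1-201 the longest run of A.
Malat1-201, chr19:5795982-5796091: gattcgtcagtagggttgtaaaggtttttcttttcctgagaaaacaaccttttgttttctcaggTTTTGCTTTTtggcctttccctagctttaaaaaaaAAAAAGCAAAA
Neat1-201, chr19:5824708-5824787: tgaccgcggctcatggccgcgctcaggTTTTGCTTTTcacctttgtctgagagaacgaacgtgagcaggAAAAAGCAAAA
Neat1-202, chr19:5842307-5842386: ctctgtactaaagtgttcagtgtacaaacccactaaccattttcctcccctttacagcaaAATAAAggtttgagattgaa
Kcnq1ot1-201, chr7:143226925-143227005: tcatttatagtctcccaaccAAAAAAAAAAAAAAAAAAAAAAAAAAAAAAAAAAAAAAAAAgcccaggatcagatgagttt

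The Malat1 stretch covers bases 6582 to 6691 of the 6983 in Malat1-201, and the Neat1-201 stretch is the last 80 of its 20771 bases. The motif TTTTGCTTTT followed by AAAAAGCAAAA within 80 bases, on the transcript strand, occurred in 4 of 141767 annotated transcripts (0.00282%), which belonged to 3 genes, Malat1, Neat1 and Retreg3. The longest run of A was 12 bases in Malat1-201, 7 in Neat1-201 and 5 in Neat1-202. In Kcnq1ot1-201, by contrast, a run of 41 bases began at base 69565 of 93092. Reads were counted per gene, so the long and short forms of Neat1 are 1 value here.

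The hosts are told apart by what lies in their introns. On its own strand, Gas5 held 10 genes annotated as snoRNAs, Snhg1 held 8 and Snhg3 held 2, Snora73a and Snora73b. The 10 of Gas5 include 2 overlapping entries both named Snord80 and 1 under a microRNA name, Mir5117. The sequences below, on the plus strand of GRCm38, are snoRNAs of Gas5 (Snord47 and Snord80) and of Snhg1 (Gm25855). They are shown because their conserved boxes mark these introns as snoRNA genes: capitals mark the first TGATGA (box C) and the last CTGA (box D).
Snord47-201, chr1:161038082-161038158: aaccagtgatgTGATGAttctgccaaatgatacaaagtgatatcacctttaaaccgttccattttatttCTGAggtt
Snord80-201, chr1:161037601-161037681: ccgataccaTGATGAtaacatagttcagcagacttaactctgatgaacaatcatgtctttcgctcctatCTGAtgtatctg
Gm25855-201, chr19:8723993-8724064: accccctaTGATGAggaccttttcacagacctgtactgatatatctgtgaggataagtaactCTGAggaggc

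All 20 of these snoRNA rows held 0 counts in all 12 libraries together. All but Snora73b share bases with annotated exons of their host. Reads on bases shared between genes are left out by the counting tool's usual mode, and the mode used is not given in the sources used here. The 0 counts therefore cannot be read as an absence of snoRNA reads. The part of such reads in the host values was not tested. Retained introns made up 20 of the 25 annotated Gas5 transcripts and 14 of the 18 of Snhg1, and 17.8% and 20.9% of their exonic bases were shared with these snoRNA genes.

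The libraries held between 13549331 and 18982127 counts, and 3 counts, the limit that a count of 0 allows, came to between 0.158 and 0.221 CPM (counts per 1000000 counts, scaled by TMM as in edgeR). Intervals and limits of this kind cover counting error only. Markers of fibroblasts were present in every library, with a summed level of 11640 to 14520 CPM over 12 genes such as Col1a1 and Vim, and 12 markers of other cell types summed to between 28.89 and 44.8 CPM; none of either list was at 0 in all libraries. Library 1 of N-VEGF cells without dox stood apart: it had the highest fibroblast marker sum (14520 CPM), 33.41 CPM of the other markers, the fewest genes detected (19976 against 20947 to 22889), the lowest mitochondrial share of counts (3.92% against 4.56% to 6.17%) and the lowest long noncoding share (0.665% against 0.846% to 1.14%). Its total of 16684018 counts lay within the range of the others. It belongs to the baseline of the dox comparison in N-VEGF cells, and the group comparisons that rest on it are given with and without it.

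Malat1 lies at chr19:5795690-5802672 on the minus strand (ENSMUSG00000092341). Untreated NLS-N-VEGF libraries held 1012, 891 and 1077 CPM of Malat1, and dox-treated ones held 707.7, 974.3 and 1300 CPM. Untreated N-VEGF libraries held 219.6, 903.9 and 1253 CPM, and dox-treated ones held 952.5, 792.3 and 1014 CPM. The low value is that of library 1 of N-VEGF cells without dox, and no other library was below 707.7 CPM. Bulk RNA cannot tell fewer cells that express a gene from less RNA per cell, here or for any member.

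Neat1 lies upstream of Malat1 on the same strand, at chr19:5824708-5845478 (ENSMUSG00000092274). Among NLS-N-VEGF libraries its levels were 309.7, 337.2 and 697.9 CPM before dox, and 301.6, 305.3 and 726.5 CPM after it. Among N-VEGF libraries they were 197.4, 400.1 and 731.7 CPM before dox, and 309, 289.4 and 802.8 CPM after it. The third library of every group, the one with suffix _290419, was the highest of its group, and those 4 libraries did not overlap the other 8.

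Kcnq1ot1 (chr7:143203458-143296549, minus strand, ENSMUSG00000101609) ran from 18.59 CPM in library 1 of N-VEGF cells without dox to 43.06 CPM in library 2 with suffix _290419 of the same group. The other 10 libraries lay between 26.48 and 35.4 CPM. Its 93092 exonic bases lie antisense to Kcnq1, and although the kit does not mark strand, exons of Kcnq1 cover only 0.1% of them. Pvt1 (chr15:62037986-62378096, plus strand, ENSMUSG00000097039) spans 340111 bases, of which 6996 are exonic, and ran from 22.48 to 36.71 CPM. Its 4 highest values were those of the libraries with suffix _290419, 32.53 to 36.71 CPM.

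Gas5 (chr1:161034422-161038539, plus strand, ENSMUSG00000053332), named for its accumulation in growth-arrested cells, stood at 293, 294.5 and 400.5 CPM in untreated NLS-N-VEGF libraries and at 276.8, 278.2 and 354.7 CPM in treated ones. In untreated N-VEGF libraries its levels were 120.3, 278.7 and 411.1 CPM, and in treated ones 281.2, 286.2 and 412.7 CPM. Apart from 120.3 CPM in library 1 of N-VEGF cells without dox, the values with suffix _120519 lay within 276.8 to 294.5 CPM, below all 4 values with suffix _290419. Snhg1 (chr19:8723475-8726443, plus strand, ENSMUSG00000108414) followed Gas5 closely. Snhg1 levels were 142.7, 134.8 and 184.4 CPM in untreated and 123.4, 139.7 and 178.1 CPM in treated NLS-N-VEGF libraries. They were 58.71, 121.1 and 202.1 CPM in untreated and 124.4, 132.6 and 206.9 CPM in treated N-VEGF libraries. The ratio of Gas5 to Snhg1 counts stayed between 1.991 and 2.302 in all 12 libraries and was 2.049 in the library where both were lowest.

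**Figure D1:**
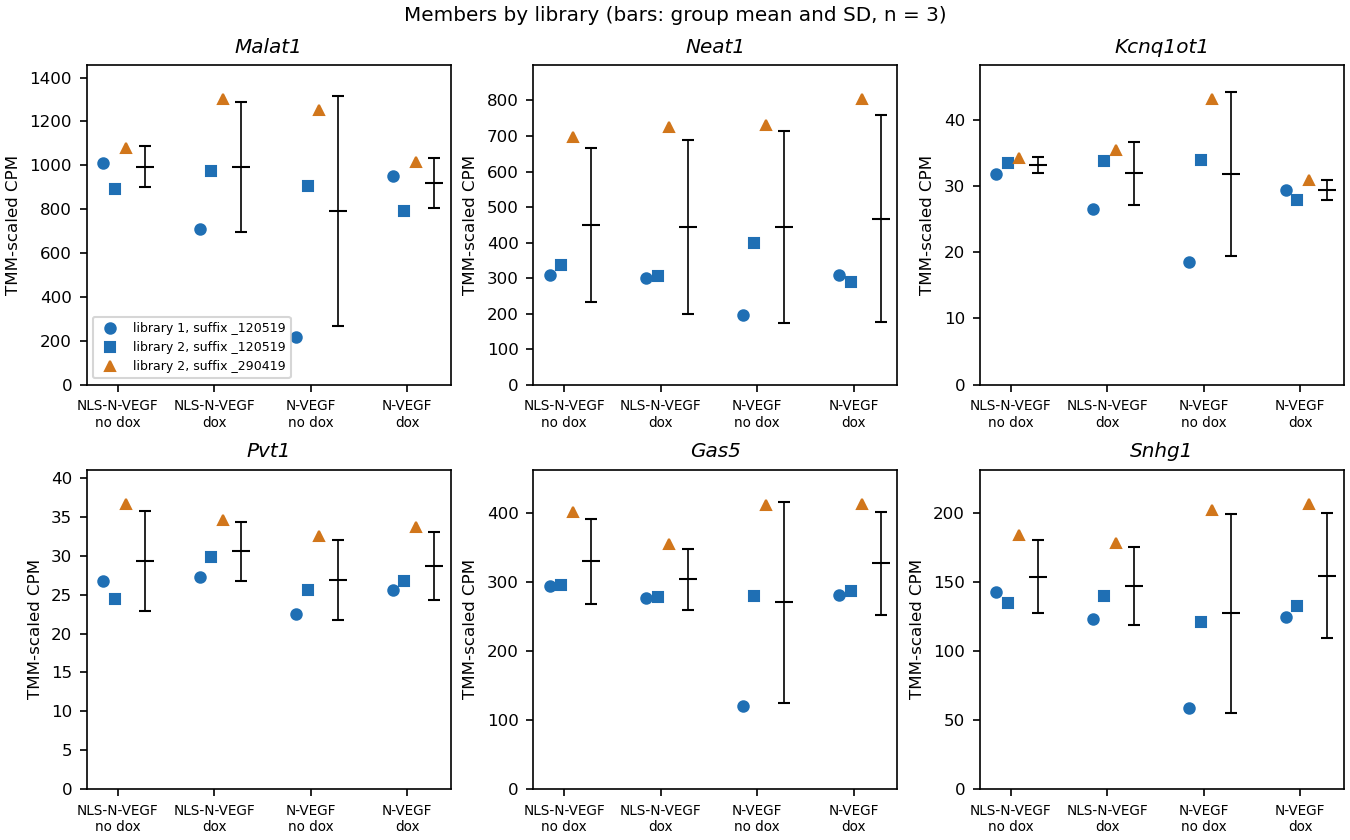
TMM-scaled CPM (linear axes from 0) of the 6 members with more than 3 counts in all, for each of the 3 libraries of the 4 groups, with the group mean and SD as bars (n = 3). The orange triangles (suffix _290419) sit above the blue points for Neat1, Pvt1, Gas5 and Snhg1, and the lowest point in each panel is library 1 of N-VEGF cells without dox, at 219.6 CPM for Malat1.

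Snhg3 (chr4:132348014-132353686, minus strand, ENSMUSG00000085241) was all but uncounted. It held 3 counts in all, 1 each in library 1 of NLS-N-VEGF cells without dox, library 2 with suffix _290419 of N-VEGF cells without dox and library 2 with suffix _120519 of N-VEGF cells with dox. The annotation places other genes over most of it: 86.3% of its 986 exonic bases were shared with other genes, 71.5% with the noncoding gene Gm17300 on the opposite strand and 13.7% with exons of Rcc1, a chromatin-bound exchange factor for Ran, on the same strand. Gm17300 held 923 counts and Rcc1 24098. Reads that fall on 2 genes are left out by the counting tool's usual mode, and the mode and strand option used are not given in the sources used here, so the low count of Snhg3 cannot be read as a low level. Snhg3 did not pass the filter on low counts, and 6 of the 7 members were tested.

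**Figure D2:**
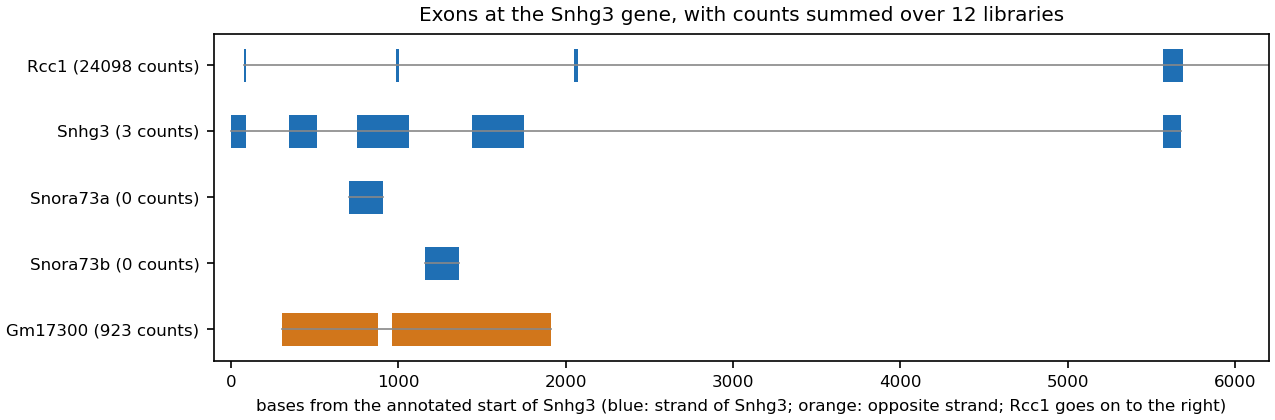
Exons of Snhg3 and of the genes that share its locus, drawn to scale against the distance in bases from the annotated start of Snhg3, with the counts of each gene summed over 12 libraries beside its name. Blue exons lie on the strand of Snhg3 and orange exons on the other; Gm17300 covers 71.5% of the exonic bases of Snhg3, which itself holds 3 counts.

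Per kilobase of exon, the scale on which genes can be set against each other, the mean level over 12 libraries fell from Malat1 (132.4 ± 39.89 CPM per kilobase, SD, n = 12) to Gas5 (81.74), Snhg1 (49.09), Neat1 (21.7), Pvt1 (4.127) and Kcnq1ot1 (0.3393). Malat1 was above Gas5 in 11 of 12 libraries. The exception was library 1 of N-VEGF cells without dox, where Malat1 stood at 31.45 CPM per kilobase and Gas5 at 32.0. The ranges over libraries of Malat1 and Gas5, of Gas5 and Snhg1 and of Snhg1 and Neat1 overlapped, while those of Neat1 and Pvt1 and of Pvt1 and Kcnq1ot1 did not. Order by length depends on the annotation: all 20771 bases of the long Neat1 form and all 93092 bases of Kcnq1ot1 count as exon. With transcripts that retain introns included, so do all 2969 bases of Snhg1 and 3760 of the 4118 bases of Gas5. A shorter, spliced length would raise the levels of both hosts per kilobase, so the order of Malat1 and Gas5 depends on this too.

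In library 1 of N-VEGF cells without dox, all 6 counted members were at their lowest of the 12 libraries. Among 8919 genes averaging 10 CPM or more, 20.0% were at their lowest there. These values chose the genes, so they are described without a test. Malat1 was at 22.5% of the median of the other 11 libraries, 4.41-fold lower, a log2 difference of -2.14 (values with 2 CPM added), which ranked it first from the bottom of the 8919 genes. Gas5 was at 41.1% of that median (log2 difference -1.27, rank 18) and Snhg1 at 42.0% (-1.22, rank 22). The remaining nuclear members were lower by less. Kcnq1ot1 was at 55.4% (log2 difference -0.79, rank 133), Neat1 at 58.5% (-0.77, rank 147) and Pvt1 at 82.5% (-0.26, rank 1389). Against the other 7 libraries of the same suffix, the log2 differences were -2.03 for Malat1, -1.21 for Gas5, -1.15 for Snhg1, -0.72 for Kcnq1ot1, -0.64 for Neat1 and -0.23 for Pvt1. A gene can be lowest in only 1 library, so it follows that 0 members were at their lowest in the other 11.

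Malat1 was the lowest of a short list in that library: 46 of the 8919 genes were more than 1 log2 unit below the median of the other libraries and 5 more than 1 above. Deviation on this scale was not particular to it, since library 2 with suffix _290419 of N-VEGF cells with dox had 82 genes more than 1 below, 29 more than 1 above and 19.2% of genes at their lowest. The members could not be among the latter, because their lowest values lay in library 1 of N-VEGF cells without dox. After Malat1 the lowest were Adgrg1, an adhesion receptor (-1.95, 1.005 CPM, although another library was lower still at 0.8615 CPM), Rsrp1, an arginine and serine rich protein (-1.54), Eif4a2, a translation initiation helicase whose introns carry snoRNAs (-1.53), and the noncoding 3110039I08Rik (-1.52). The highest was Txnip, an inhibitor of thioredoxin, at 62.67 CPM against a median of 19.9 CPM (log2 difference 1.56), followed by Aldh3a1 (1.11), Capn6 (1.05), Cemip (1.04) and C1s1 (1.03). Against the 7 libraries of the same suffix the difference of Txnip was 0.73, that of Aldh3a1 1.06, that of Capn6 0.52, that of Cemip 0.44 and that of C1s1 0.36, all but that of Aldh3a1 well below the difference from all 11 libraries.

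Other genes of the same kinds were read from fixed lists, restricted to those averaging 1 CPM or more. Of 12057 such genes, 23.3% were at their lowest in library 1 of N-VEGF cells without dox. Of 14 other listed snoRNA hosts, 12 were at their lowest there, with a median log2 difference of -0.77 against 0.01 over all genes. Snhg6 had the lowest difference of them (27.5 CPM against a median of 63.35 CPM, -1.15), Snhg20 (-0.94) and Snhg5 (-0.93) came next, and Snhg18 (0.15) was the only one above 0. Of 8 other listed nuclear long noncoding RNAs 5 were at their lowest, with a median of -0.59. These include Ftx and Firre, RNAs of X-linked loci (-0.999 and -0.762), Airn, an imprinted antisense RNA (-0.65), and Tug1 (101.8 CPM against 139.5 CPM, -0.45).

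The proteins that work with the members differed less. Of 15 proteins of nuclear speckles, the bodies where Malat1 gathers, 9 were at their lowest in that library, with a median of -0.28 and the splicing factor Srsf5 lowest at -0.94. For 15 paraspeckle proteins, the partners of Neat1, the count was 3 and the median -0.03, for 14 factors of NMD it was 3 and -0.01, and for 14 proteins of snoRNA particles it was 3 and 0.12. Genes beside Malat1 and Neat1 on the chromosome were not low as a group: 1 of 11 was at its lowest, with a median of 0.09, and of 10 genes beside the other members 0 were, with a median of 0.15. Of the cell markers, 0 of 11 for fibroblasts (median 0.08) and 0 of 5 for other cells were at their lowest, although the median of the latter was -0.21.

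Across the annotation, in classes added after the data were seen, 28 noncoding snoRNA hosts other than the members had 20 at their lowest (71.4%, median -0.44), whereas 223 protein-coding genes with a snoRNA inside had 58 (26.0%, median 0.05). For 579 other long noncoding RNAs the count was 253 (43.7%, median -0.22), and for 10909 protein-coding genes without a snoRNA it was 2305 (21.1%, median 0.03). The low values of library 1 of N-VEGF cells without dox were thus most frequent among noncoding hosts, next among other long noncoding RNAs, and near the share of all genes among coding hosts. That library also had fewer genes detected and a lower mitochondrial share, and the part of RNA quality or library preparation in these values was not tested.

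**Figure D3:**
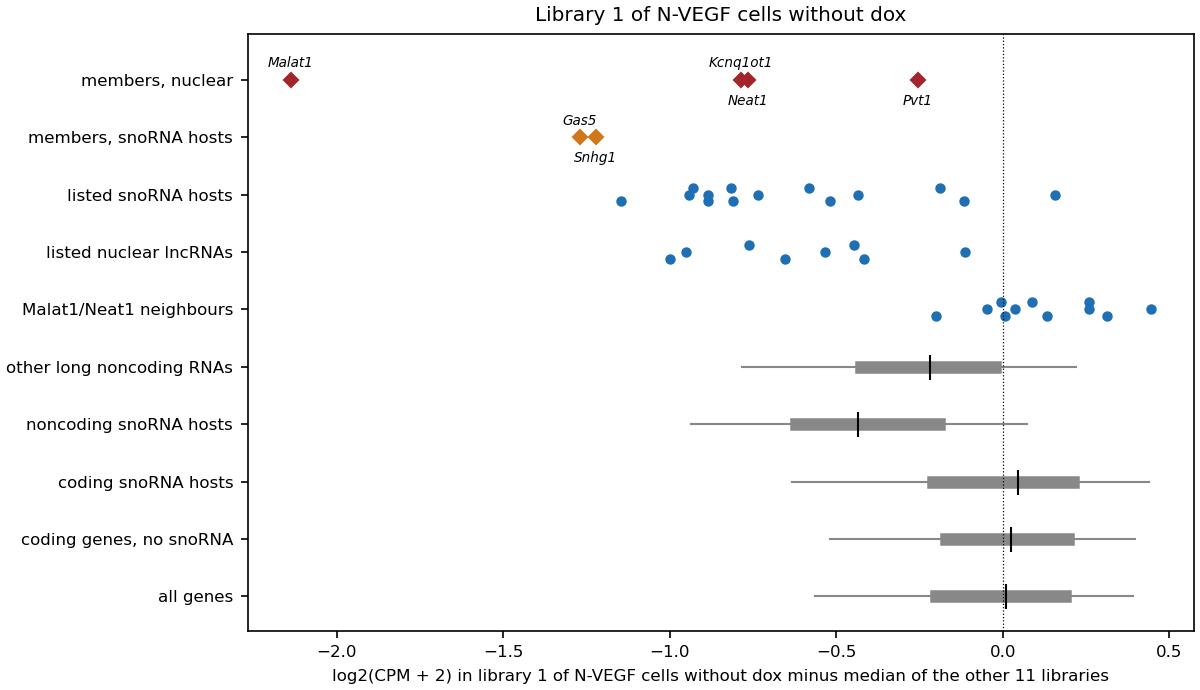
Difference in log2(CPM + 2) between library 1 of N-VEGF cells without dox and the median of the other 11 libraries, for the members (diamonds), for each listed gene (blue points) and for annotated classes (grey: thick bars the middle range between quartiles, thin lines the 5th to 95th percentile, black ticks the median). Malat1 lies farthest left at -2.14 and both counted snoRNA hosts lie near -1.2, while the median over all genes is 0.01.

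Libraries with suffix _290419 held more of the members than libraries with suffix _120519. Every one of the 4 libraries with suffix _290419 was above every one of the 8 with suffix _120519 for 5 of the 6 tested members, against 13.1% of 13608 genes. Kcnq1ot1 was the exception, with 30.96 CPM at the lowest against 33.97 CPM at the highest, and for Malat1 the gap was narrow, 1014 against 1012 CPM. For Neat1 it was 697.9 against 400.1 CPM, for Gas5 354.7 against 294.5 CPM, for Snhg1 178.1 against 142.7 CPM and for Pvt1 32.53 against 29.85 CPM.

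By edgeR's quasi-likelihood test with group and suffix as terms and Benjamini-Hochberg adjustment over all genes, 4 of 6 members were called at an adjusted p under 0.05, all higher with suffix _290419. This has to be read against a broad difference, since 45.6% of all genes tested were called and 22.2% were called higher. Neat1 rose 2.42-fold (log2 fold change 1.27, SE 0.12, adjusted p = 7.59e-07). Snhg1 rose 1.61-fold (0.68, SE 0.14, adjusted p = 0.000864), Gas5 1.52-fold (0.60, SE 0.15, adjusted p = 0.00345) and Pvt1 1.32-fold (0.40, SE 0.06, adjusted p = 8.99e-05). Kcnq1ot1 was not called (0.29, SE 0.13, adjusted p = 0.0706), and Malat1, whose low library enters this contrast, had a log2 fold change of 0.56 (SE 0.24).

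Without library 1 of N-VEGF cells without dox all 6 members were called higher, where 51.6% of all genes were called and 25.0% were called higher. The low Malat1 of that library was known when the genes were chosen, and all 6 members were lowest in it. Leaving it out narrows their spread (SE of Malat1 0.24 with it, 0.08 without), so these calls are not independent of that choice. Neat1 was then at 1.19 (SE 0.06, adjusted p = 1.85e-11), Snhg1 at 0.56 (SE 0.05, adjusted p = 1.04e-07), Gas5 at 0.47 (SE 0.04, adjusted p = 2.69e-08) and Pvt1 at 0.38 (SE 0.06, adjusted p = 1.47e-05). Malat1 was at 0.37 (SE 0.08, adjusted p = 0.000723) and Kcnq1ot1 at 0.18 (SE 0.06, adjusted p = 0.0214). Leaving out library 2 with suffix _120519 of the same group also gave 6 called members, with Malat1 at 0.75 and Kcnq1ot1 at 0.35. Between the libraries numbered 2, which pair the suffixes within each group, Neat1 differed by 1.829- to 2.774-fold in the 4 groups, Snhg1 by 1.274- to 1.669-fold, Gas5 by 1.275- to 1.475-fold, Malat1 by 1.209- to 1.386-fold, Pvt1 by 1.16- to 1.499-fold and Kcnq1ot1 by 1.021- to 1.268-fold, all in the same direction.

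**Figure D4:**
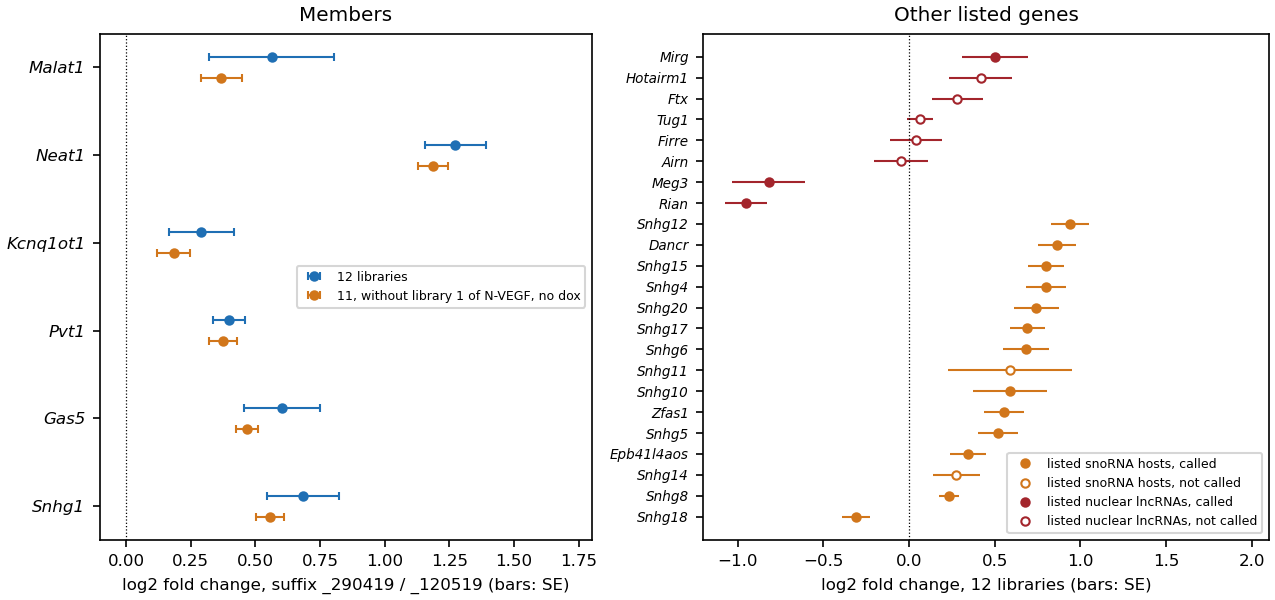
Log2 fold change between libraries with suffix _290419 and suffix _120519, with SE as bars, for the 6 tested members with 12 libraries (blue) and with 11 (orange), and for the other listed nuclear RNAs (red) and snoRNA hosts (orange, filled where called) with 12. Neat1 stands highest at 1.27, most listed hosts lie between 0.2 and 1, and Rian and Meg3 lie below 0.

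Among listed genes outside the members, hosts and nuclear RNAs were counted apart, and the difference between these lists was not tested. Of 15 other listed hosts 12 were called higher and 1 lower with suffix _290419, against 22.2% of all genes called higher, and their median log2 fold change was 0.59, where that over all genes was 0.01. Snhg12 (0.94, SE 0.11) rose most, followed by Dancr (0.86), Snhg15 (0.80) and Snhg4 (0.80), and Snhg18 fell (-0.31). Of 8 other listed nuclear RNAs 1 was called higher, Mirg (0.50), and 2 lower, Rian (-0.95, SE 0.12) and Meg3 (-0.82, SE 0.21); Mirg, Rian and Meg3 are transcripts of 1 imprinted cluster. Their median was 0.05.

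The annotated classes, added after the data were seen, gave 21 of 29 noncoding hosts called higher and 2 lower (median 0.52), and 318 of 1046 other long noncoding RNAs higher and 61 lower (median 0.31). Of 232 protein-coding hosts 52 were higher and 58 lower (median -0.02), near the split of 2422 higher and 3022 lower among 11651 protein-coding genes without a snoRNA (median -0.02).

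The protein lists are to be read against the 45.6% of all genes called and 22.2% called higher. Of 15 paraspeckle proteins 6 were higher and 2 lower with suffix _290419 (median 0.06). Hnrnph3 (0.60), Taf15 (0.49) and Sfpq (0.25) were among those that rose, and Cpsf6 (-0.40) and Nono (-0.14) fell. Of 15 speckle proteins 6 were higher, led by Pnn (0.76) and Srsf11 (0.62), and Son, a scaffold of the speckle, was lower (-0.23), with a median of 0.14. Of 14 proteins of snoRNA particles 9 were higher and 1 lower (median 0.22), among them the assembly factor Znhit6 (0.53), the H/ACA protein Gar1 (0.43), and the C/D core proteins Nop56 (0.42) and Nop58 (0.38), and the assembly factor Shq1 was lower (-0.27). Of 14 NMD factors 6 were higher, led by Upf3b (0.82), and 3 lower, led by Smg8 (-0.37), with a median of 0.10. The counts of called paraspeckle and speckle proteins, 8 and 7 of 15, were near the share of all genes.

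Genes next to the members were called about as often as other genes or less, with 4 of 11 (36.4%) in each list against 45.6% of all genes. Of 11 genes beside Malat1 and Neat1 4 were higher, Tigd3 (0.53), Ltbp3 (0.27), Pola2 (0.27) and Ehbp1l1 (0.19), and 0 lower. Of 11 genes beside the other members 0 were higher and 4 lower. Kcnq1, which Kcnq1ot1 overlaps, was lower (-1.09, SE 0.23), as were Zbtb37 beside Gas5 (-0.65), Myc beside Pvt1 (-0.33) and Slc3a2 beside Snhg1 (-0.15). Fibroblast markers moved with the suffix as well: 3 of 11 were higher, Thy1 (0.53), S100a4 (0.40) and Vim (0.38), and 6 lower, led by Pdgfra (-1.32) and Col3a1 (-1.22). Of 6 markers of other cells 3 were higher, Cd68 (0.82), Krt14 (0.73) and Tubb3 (0.30), and 0 lower, and their summed level was 37.35 to 44.8 CPM with suffix _290419 against 28.89 to 35.36 CPM with suffix _120519. Their part in the suffix difference of the members was not tested.

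None of the members was called between the study's groups. Dox in NLS-N-VEGF cells called 0 of 6 members and 0.022% of 13608 genes, with member log2 fold changes from -0.12 (Gas5) to 0.06 (Pvt1) and a median of -0.04 against 0.00 over all genes. Malat1 went from 993.3 ± 94.39 to 993.9 ± 296.5 CPM (SD, n = 3 each), a log2 fold change of 0.001 with a 95% interval of -0.85 to 0.85. Neat1 was at 448.3 ± 216.6 and 444.5 ± 244.3 CPM (SD, n = 3 each, log2 fold change -0.01, interval -1.07 to 1.04). The spread of Neat1 is that between the suffixes, and in this fit without a block a change of up to 2-fold in either direction lies within the interval. With label number and suffix as a block, 17 genes were called in place of 3, and 0 members. With that block Neat1 was at -0.04 (interval -0.32 to 0.24), which leaves a 2-fold change outside. Malat1 was at -0.07 (interval -0.67 to 0.53). The 95% intervals are normal approximations from the SE, so they run somewhat narrower than edgeR's test allows with so few libraries.

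Dox in N-VEGF cells called 0 of 6 members and 0.0367% of genes. Their median log2 fold change was 0.15 against 0.00 over all genes. Leaving out library 1 without dox, in this fit without a block, turned it to -0.15 and put all 6 values below 0. Malat1 moved from 0.21 (SE 0.44) to -0.23, Neat1 from 0.08 to -0.28, Gas5 from 0.27 to -0.08, Snhg1 from 0.28 to -0.06, Pvt1 from 0.09 to -0.02 and Kcnq1ot1 from -0.12 to -0.39. For Kcnq1ot1 this last value had an unadjusted p of 0.0143 and an adjusted p of 1.0 by edgeR. The median was 0.66 without library 2 with suffix _290419 of the untreated cells, and -0.01 without that of the treated cells. Single libraries of both groups thus decided the size and sign of the median. Leaving out either of these leaves suffix _290419 on 1 side of the comparison only. The block called 15 genes in place of 5, and 0 members. With library 1 left out, suffix _290419 weighs more among the untreated than among the treated libraries. The fit without a block does not take this into account. With the block and library 1 left out, the median was -0.08. Gas5 was then at 0.002, Snhg1 at 0.04 and Pvt1 at 0.05, while Malat1 (-0.16), Neat1 (-0.16) and Kcnq1ot1 (-0.33) stayed below 0.

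The difference between the dox effects called 0 of 6 members and 0.0% of genes by edgeR, where 116 genes and 0 members had an unadjusted p under 0.05 and DESeq2 called 0 genes. Member values ran from -0.39 (Gas5) to 0.06 (Kcnq1ot1), with a median of -0.15 against 0.01 over all genes. Without library 1 of N-VEGF cells without dox the median turned to 0.155 (range -0.04 to 0.33), and without library 2 with suffix _290419 of that group it was -0.67, so its sign and size rested on single libraries. In these fits without a block, leaving out either library makes the suffix uneven between the others and that group. With the block and library 1 of that group left out, the median was 0.07 (range -0.11 to 0.265). NLS-N-VEGF cells against N-VEGF cells, both with dox, called 0 members and 0.0% of genes by edgeR, where 160 genes and 0 members had an unadjusted p under 0.05, DESeq2 called 0 genes and the block 2. Member values ran from -0.11 (Gas5) to 0.12 (Kcnq1ot1), with a median of 0.01. None of these 6 libraries is the one with low Malat1.

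Without dox, the same comparison called 0 members and 0.0% of genes by edgeR, where 82 genes and 0 members had an unadjusted p under 0.05 and DESeq2 called 0 genes. All 6 values were above 0 here, from 0.02 (Neat1) to 0.33 (Malat1), with a median of 0.20. Without library 1 of N-VEGF cells the range was -0.34 (Neat1) to 0.01 (Pvt1) and the median -0.09, and without library 2 with suffix _290419 of that group the median was 0.64. In these fits without a block, leaving out either library makes the suffix uneven between the NLS-N-VEGF cells and that group. With the block and library 1 of that group left out, values ran from -0.16 (Neat1) to 0.08 (Pvt1), with a median of -0.01. This comparison, the dox comparison in N-VEGF cells and their difference share the untreated N-VEGF libraries, so their values are not independent of one another. Other listed hosts had 0 of 15 called in each of the 5 comparisons, with medians of -0.02 for dox in NLS-N-VEGF cells, 0.18 for dox in N-VEGF cells and -0.09 for the latter without library 1, and none of the other listed genes (speckle, paraspeckle, NMD and snoRNA particle proteins, neighbours and markers) was called by edgeR in any of the 5 either.

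The balance of the classes was read as the log2 ratio of the summed counts of nuclear members to those of host members, which does not depend on the scaling of a library. For NLS-N-VEGF cells it was 1.66, 1.58 and 1.66 before dox and 1.41, 1.68 and 1.98 after it. For N-VEGF cells it was 1.35, 1.77 and 1.75 before dox and 1.70, 1.44 and 1.60 after it. The lowest of the 12 belonged to library 1 of untreated N-VEGF cells, although it was near the next value of 1.41. Group means were 1.64 ± 0.04, 1.69 ± 0.28, 1.62 ± 0.23 and 1.58 ± 0.13 (SD, n = 3 each), apart by less than the spread within the wider groups. With library 1 left out, an alternative chosen after the data were seen, the mean of untreated N-VEGF cells was 1.76 ± 0.02 (SD, n = 2). The score was chosen with results known and was not tested.

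Malat1 weighs most in this ratio, and without it the picture turned around. The ratio of Neat1, Kcnq1ot1 and Pvt1 to the hosts was then 0.41 in library 1 of N-VEGF cells without dox, above all 7 other libraries with suffix _120519 (-0.28 to 0.20) and 9 of the other 11. In that library Malat1 made up 47.9% of the nuclear members' counts, against 53.9% to 73.3% in the others, and the count ratio of Malat1 to Neat1 was 1.113 against 2.259 to 3.267 in the other libraries with its suffix. With suffix _290419 that ratio was 1.263 to 1.789, where Neat1 was high rather than Malat1 low. Hosts and Malat1 were thus low together in library 1 of N-VEGF cells without dox by more than Neat1, Kcnq1ot1 and Pvt1, so its values did not divide along the line between nuclear and host RNAs.

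**Figure D5:**
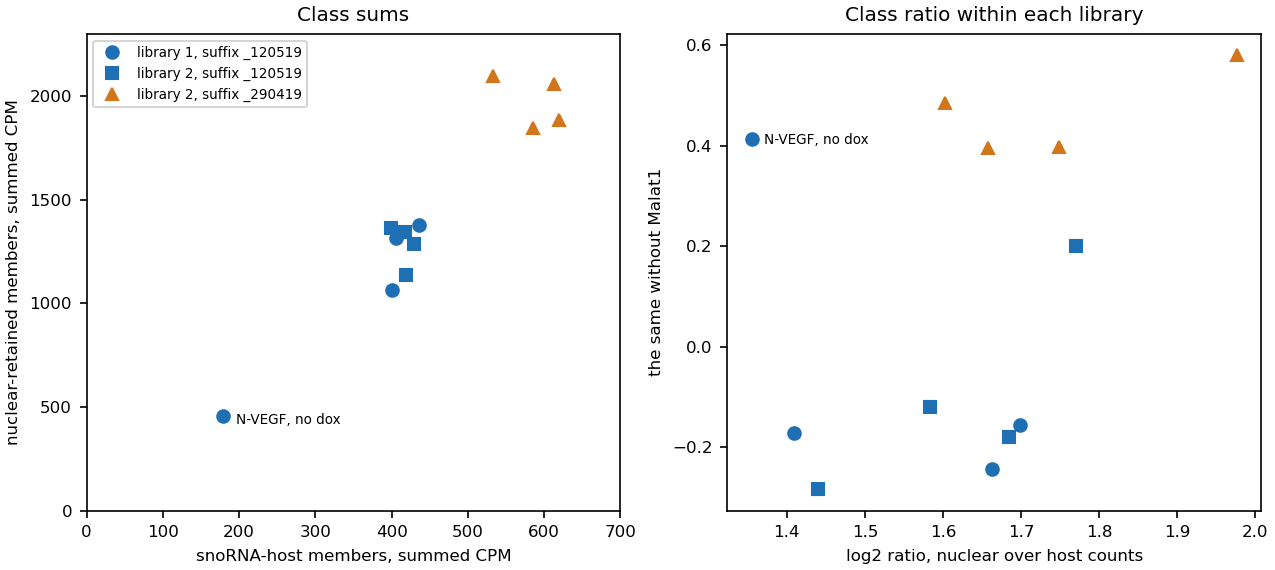
Left, summed CPM of the 4 nuclear members against summed CPM of the host members in each of 12 libraries; right, the log2 ratio of their counts within each library, with Malat1 (horizontal) and without it (vertical). Library 1 of N-VEGF cells without dox, the labelled point, is lowest on both axes at the left and at 1.35 and 0.41 at the right, and the 4 libraries with suffix _290419 have the highest nuclear sums.

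The genes most like each member were taken by Pearson's correlation of log2 CPM over the 12 libraries, among the 12057 genes averaging 1 CPM or more. These correlations describe libraries that share suffix and depth, carry no test, and for Malat1 rest largely on library 1 of N-VEGF cells without dox. For Gas5 the order of the genes rests on that library. Without it the 5 genes named for Gas5 kept r between 0.952 and 0.973, but at ranks 54 to 218. Gas5 was most like Eif4a2 (r = 0.990), Snhg6 (0.988), AL805899.1 (0.987), Snhg1 (0.987) and Snhg5 (0.982). Snhg1 was most like Gm4631 (0.989), Gnl3 (0.989), Rabggtb (0.988), Gas5 (0.987) and Taf1d (0.986). Of the 5 genes most like Gas5, 4 hold an annotated snoRNA gene, Eif4a2 with 5, Snhg6 with 1, Snhg1 with 8 and Snhg5 with 2. Of the 5 most like Snhg1, 4 do so too, Gnl3 and Rabggtb with 3 each, Gas5 with 10 and Taf1d with 8. Of all 12057 genes 253 (2.1%) hold one, and 0 of the 5 genes most like each nuclear member do. Without library 1 of N-VEGF cells without dox, 0 of the 5 genes then most like Gas5 hold one (Cops8, Calr3, Prl2c2, Zrsr2 and Znhit6), and 3 of the 5 then most like Snhg1 do. With that library kept and the mean of each suffix taken out, 3 of 5 do for Gas5, 4 of 5 for Snhg1 and 1 of 5 for Neat1.

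Malat1 was most like Odf2l (r = 0.979), Zgrf1, Zfp101, the splicing factor Srsf5 and Ccdc18 (0.974), and 0 of these 5 stayed among its first 5 without library 1 of N-VEGF cells without dox. Neat1 was most like Slc7a3 (0.991), Mss51, Safb2, the paraspeckle protein Hnrnph3 and Clcf1 (0.985), of which 3 stayed. Kcnq1ot1 was most like Gm42732 (0.966) and Pvt1 like Mios (0.977), with 3 of 5 staying for each, while 0 of 5 stayed for Gas5 and 2 of 5 for Snhg1. Between members, Gas5 and Snhg1 kept r = 0.973 without that library and 0.982 after the mean of each suffix was taken out. Malat1 and Gas5 went from 0.933 to 0.696 without it, and Malat1 and Neat1 stood at 0.69 with and 0.748 without it.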

How the data were processed

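RNA was measured by bulk RNA sequencing in 12 libraries. The authors deposited raw counts per gene: per the labels and the submitters' processing notes, TruSeq RNA v2 libraries, which keep polyadenylated RNA and do not mark strand, were trimmed (Trim Galore, cutadapt 1.10), checked (FastQC 0.11.5), aligned to GRCm38 with TopHat2 2.1.0 and Bowtie2 2.2.6 and counted with HTSeq 0.6.1, and DESeq2 1.18.1 was used downstream. Positions, exon lengths and snoRNA genes came from GENCODE vM21.

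Counts were fitted as deposited over all 12 libraries with edgeR 4.0.16 (quasi-likelihood F test, two-sided, TMM scaling, filterByExpr, Benjamini-Hochberg over all 13608 genes tested, calls at an adjusted p under 0.05), with 1 mean per group, or group and suffix for the suffix contrast. The step was tested on simulated data. DESeq2 1.42.0, RLE scaling, no filter, a block, a suffix term and left-out libraries were alternatives. The study's methods used DESeq2 without a block. Libraries of different groups with the same number and suffix deviated together: the correlation of their deviations from group means over 12057 genes was above 0.1 in 18 of 18 pairs (mean 0.59, lowest 0.40), so the labels were taken to pair libraries, although pairs that share only the suffix also correlated (mean 0.47).

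The members and lists were chosen with earlier results of these data known. Named genes were the members, up to 4 called genes per direction of each list, the 5 genes most like each member, and the 5 lowest and highest genes of library 1 of N-VEGF cells without dox. Other genes named with a value in that library (listed RNAs and Srsf5) were chosen after their values were seen.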

Additional observations from a re-analysis of the deposited data

Results flagged for a closer look

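Library 1 of N-VEGF cells without dox, whose low Malat1 was known when the genes were chosen, was left out here. Among the other 7 libraries with suffix _120519, the library numbered 2 of untreated N-VEGF cells stood highest for Neat1, at 400.1 CPM. Its gap to the next library was 0.5682 of the whole range, barely above Dixon's critical value of 0.568 for 7 samples. In all, 12 sets of libraries sharing a suffix were examined, for 6 members, and chance flags about 1 in 20. Groups of 3 libraries are too small for this rule.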

How the results depend on the processing

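0 members were called in any of the 5 group comparisons with DESeq2, RLE scaling, no filter on low counts, a suffix term, only suffix _120519, or any 1 of 12 libraries left out. With label number and suffix as a block, 0 members were called in each, and the block changed no other member call. The block with library 1 of N-VEGF cells without dox left out, chosen after the data were seen, also called 0. For the suffix, where the block cannot be added, 4 members were called with DESeq2 and RLE scaling, 6 without the filter and 5 among libraries numbered 2, and 4 to 6 with 1 library left out, always higher.

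The sign of the dox effect in N-VEGF cells depended on single libraries. With 1 library left out, log2 fold changes ran from -0.23 to 0.69 for Malat1, -0.57 to 0.62 for Neat1, -0.39 to 0.14 for Kcnq1ot1, -0.036 to 0.23 for Pvt1, -0.079 to 0.69 for Gas5 and -0.065 to 0.76 for Snhg1. These fits have no block, so leaving out any library of N-VEGF cells makes the suffix uneven between untreated and treated ones. With the block and all 12 libraries, values ran from -0.08 (Kcnq1ot1) to 0.39 (Malat1). The block without library 1 gave -0.16 for Malat1, -0.16 for Neat1 and -0.33 for Kcnq1ot1, but 0.002 for Gas5, 0.04 for Snhg1 and 0.05 for Pvt1. Suffix _120519 alone, with library 1 kept, gave -0.008 for Neat1, 0.11 for Kcnq1ot1 and 0.115 for Pvt1. In that fit Malat1 was at 0.63, Gas5 at 0.498 and Snhg1 at 0.505. None of these was called, and the cause was not tested.

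The class ratio of library 1 of N-VEGF cells without dox was 0.41 without Malat1, -0.22 per exonic kilobase and 0.56 with the other listed genes, against means of 0.082, 0.29 and 0.86 in the other 11, so its place among the libraries depends on Malat1. The low count of Snhg3 limits any statement on it.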
